A study of Mus musculus with 17 samples.

Results

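A heterozygous deletion of the URE, the upstream regulatory element that lies before Spi1, was compared with the wild-type state in mouse bone marrow cells labelled cKit+ Lymph- Ery- HSPC, a sorted population of haematopoietic stem and progenitor cells without lymphoid and erythroid surface markers. The comparison used 6 of the 17 libraries of the series, chosen by genotype: 3 of URE[delta]/+;Tet2+/+ (called URE het) and 3 of URE+/+;Tet2+/+ (WT). A further 6 libraries of the same sort, 3 of URE+/+;Tet2+/- (Tet2 het) and 3 of URE+/+;Tet2-/- (Tet2 KO), carried 2 intact copies of the element and helped to estimate the spread; all 12 were labelled Normal. The remaining 5 libraries, of URE[delta]/+ mice that had also lost 1 or both copies of Tet2, were labelled acute myeloid leukaemia (AML) and are given for single genes at the end. Age was not given beyond age-matched controls, and strain, sex and the construction of either allele were not given. The labels leave unsaid whether libraries came from separate mice, so the p-values measure the spread between these libraries, which may be technical in part.

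The URE is an enhancer upstream of Spi1, the gene for the Ets-family transcription factor PU.1, and is bound by PU.1 itself. PU.1 sets the expression of cytokine receptors, granule proteins and signalling adaptors in granulocytes and monocytes, and its dose is known to matter for macrophage, dendritic and B-cell fates. Mice with very low PU.1 from loss of the element on both chromosomes are known to develop myeloid leukaemia.

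The cells carried progenitor transcripts. Kit stood between 120 and 161 CPM (counts per 1 M counts of a library, after TMM scaling) in WT and between 144 and 169 in URE het, while Cd3e, a T-cell gene, did not exceed 0.978 CPM in either group. Late neutrophil transcripts were abundant all the same: the 20 genes of that list summed to between 33300 and 58300 CPM in WT and between 46500 and 99000 CPM in URE het. Gene counts ran from 27.4 to 33.6 M in these 6 libraries. The number in the library title split the 12 Normal libraries: 3124 of 18282 genes tested (17.1%) were higher and 3531 (19.3%) lower in titles 8 to 17 than in titles 1 to 7 (edgeR adjusted p under 0.05). WT replicates 1 and 2 and URE het replicate 1 fell in the earlier range and the other 3 libraries in the later one, so the range was a term of the fit (no label names it as a batch). Read from Xist and Y-linked transcripts, all 3 URE het libraries were male, as was WT replicate 3, and WT replicates 1 and 2 were female.

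Spi1 RNA itself did not pass the test. Spi1 (ENSMUSG00000002111.8, GRCm38 chr2:91082390-91115756, plus strand) stood at 105, 121 and 55.7 CPM in WT replicates 1 to 3 and at 90.6, 53.4 and 45.1 CPM in URE het replicates 1 to 3. The URE het library was the lower one in the earlier range, and both URE het libraries lay just under the single WT library in the later range; pooled over ranges the groups overlapped. The log2 fold change of URE het against WT was -0.21 ± 0.13 (SE; edgeR adjusted p = 0.488), with -0.32 within the earlier range and -0.18 within the later range. Between the ranges, Spi1 dropped by 1.07 (log2) from titles 1 to 7 to titles 8 to 17, a larger difference than that between the genotypes. Tet2, which encodes a DNA demethylase and was intact in both groups, stood at 132, 107 and 117 CPM in WT and at 128, 129 and 176 CPM in URE het (log2 fold change 0.23 ± 0.14, edgeR adjusted p = 0.473). Only gene rows were used here, and the deletion itself was not checked; the table's enhancer rows were not analysed here.

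No gene around Spi1 passed the test. Of 21 other genes tested within 500 kb, none was lower and 2 were higher at an unadjusted p under 0.05, against 7.82% of all tested genes lower and 7.13% higher at that threshold. These were Madd, a guanine nucleotide exchange factor for Rab proteins (log2 fold change 0.32 ± 0.12), and Ckap5, a microtubule polymerase (0.39 ± 0.15), both named after their values were seen. The lowest edgeR adjusted p among the 21 was 0.241. Mybpc3, the nearest tested neighbour at 2.4 kb, had a log2 fold change of -0.35 ± 0.67.

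A small set of transcripts separated URE het from WT. With edgeR, 16 of 18282 genes passed an adjusted p of 0.05 (0.0875%): 6 rose (0.0328%) and 10 fell (0.0547%). Those that rose encode the endothelin receptor Ednra with a non-coding transcript over the same place (4933431K23Rik), the protease inhibitor Serpine2, the mitotic kinase Ttk, the glycerol kinase relative Gk5 and the predicted gene Gm9008. Those that fell include Siglech, a marker of plasmacytoid dendritic cells, and Irf4, a factor of dendritic and B cells. The adaptor Clnk, the growth factor Gdf3 and the kinase Pak1 fell too. At an unadjusted p under 0.05, 1304 genes were higher and 1429 lower (14.9% of all genes together). In RNA from a mixed sort, fewer cells of a type and less RNA per cell cannot be told apart. The number of calls depended on the fit: without the range term none passed (1502 genes at an unadjusted p under 0.05), with a term for sex none passed (2298), and with the range term DESeq2 called 218 higher and 271 lower. Without URE het replicate 3, WT replicate 1 or WT replicate 2 none passed either, and without URE het replicate 1 the count was 173 (40 higher, 133 lower). Within titles 8 to 17 alone it was 91, of which 1 was higher and 90 lower.

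**Figure D1:**
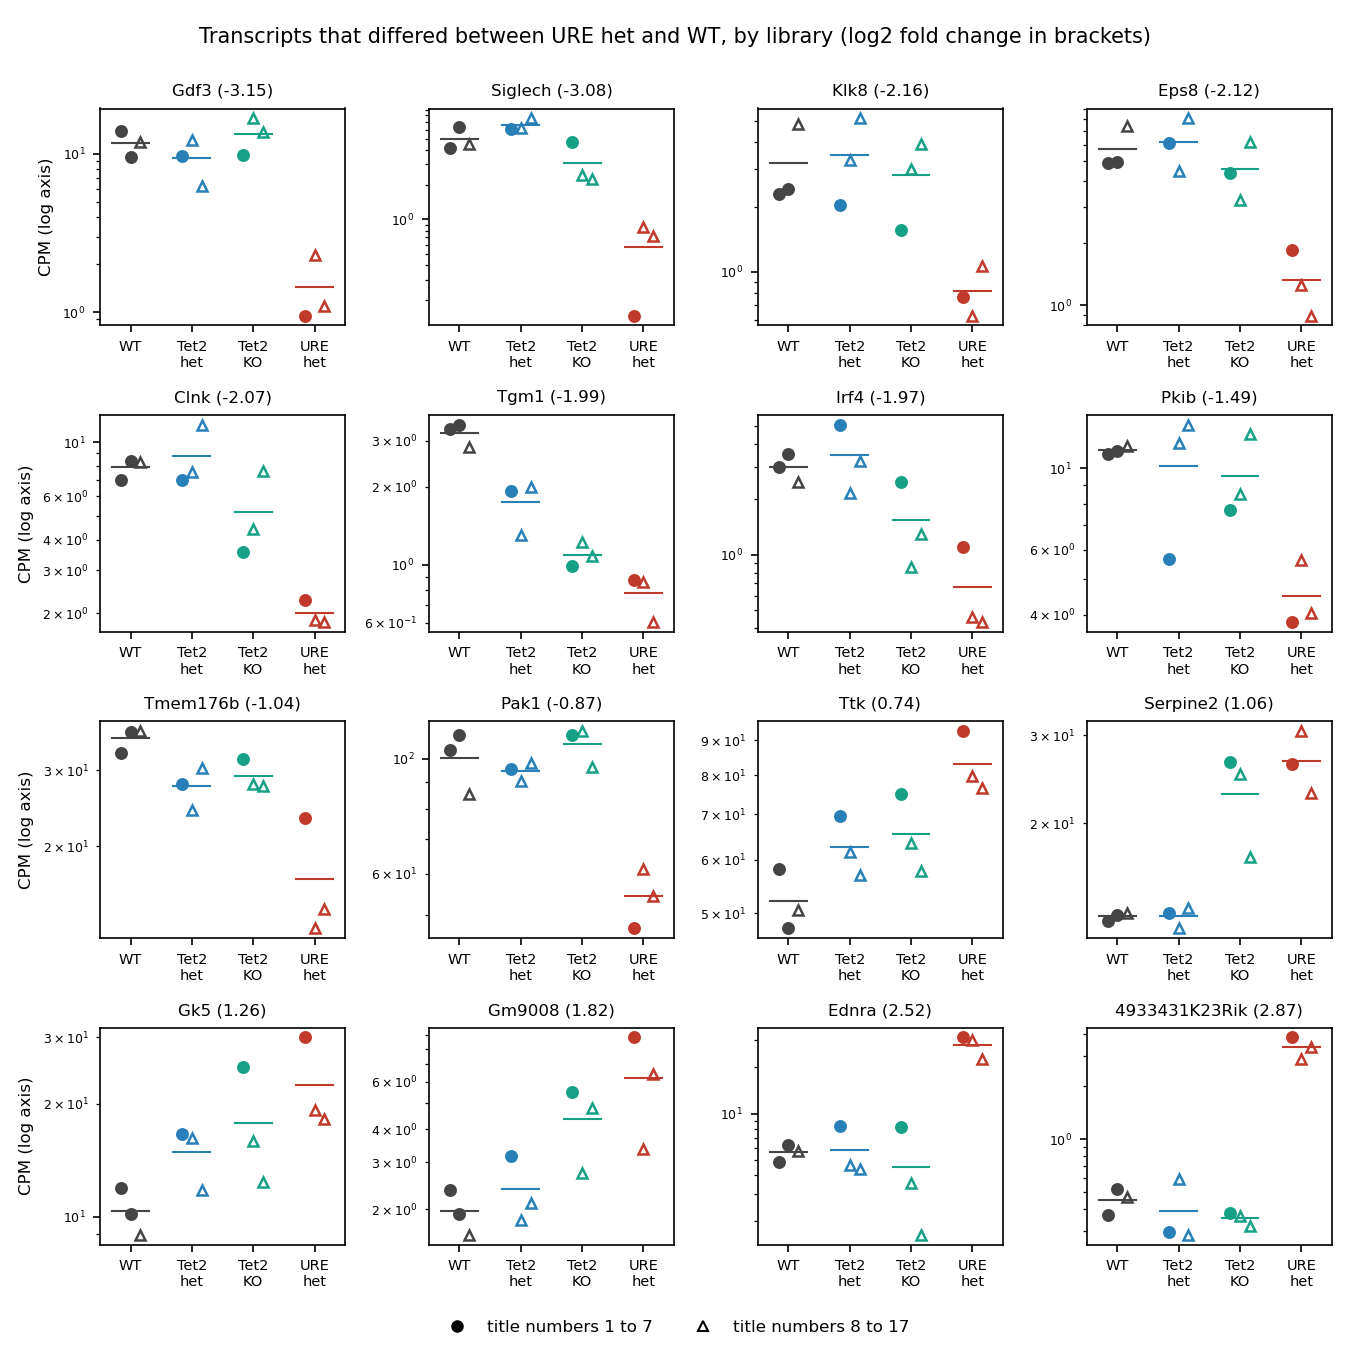
Levels of the 16 transcripts in each of the 12 Normal libraries (CPM, log axis), ordered by the log2 fold change of URE het against WT given in brackets. Each point is 1 library, filled circles for titles 1 to 7 and open triangles for titles 8 to 17, and each bar is the mean of 3 libraries; the URE het libraries of Gdf3 lie between 0.95 and 2.31 CPM, under all 9 others, and those of Ednra between 22.5 and 31.2 CPM, above all 9.

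Ednra, the receptor for endothelin-1, showed the largest rise of a protein-coding gene among the 16. Ednra (ENSMUSG00000031616.7, chr8:77663031-77724464, minus strand) stood at 4.88, 6.3 and 5.71 CPM in WT and at 31.2, 30.1 and 22.5 CPM in URE het. The highest of the 9 Normal libraries with 2 intact elements was 8.29 CPM, so the groups were far apart in both ranges; over all tested genes, 1.3% showed no overlap of URE het with the 9. It was 5.73-fold higher than in WT (log2 fold change 2.52 ± 0.37, edgeR adjusted p = 0.0433). The non-coding gene 4933431K23Rik (chr8:77610860-77769682) lies on the plus strand and spans the whole of Ednra. It stood at 0.368, 0.52 and 0.47 CPM in WT and at 3.8, 2.87 and 3.34 CPM in URE het, 7.32-fold higher (edgeR adjusted p = 0.0332). Whether reads were counted by strand was not given, so the 2 transcripts of this place cannot be told apart.

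The other rises were smaller. Serpine2, also called protease nexin-1, an inhibitor of thrombin and urokinase, stood at 12.7, 13.1 and 13.2 CPM in WT and at 26.3, 30.6 and 23 CPM in URE het. That is 2.09-fold (log2 fold change 1.06 ± 0.17, edgeR adjusted p = 0.0433), with no overlap between these groups. In Tet2 KO it also lay above WT, at 26.5, 25.1 and 17.1 CPM. Gk5 stood at 11.9, 10.2 and 8.97 CPM in WT and at 30, 19.2 and 18.2 CPM in URE het (2.39-fold, edgeR adjusted p = 0.0387), and its highest library of the 9 others was 25.1 CPM, inside the URE het range. Ttk, which encodes the spindle checkpoint kinase Mps1, stood at 58.2, 47.5 and 50.5 CPM in WT and at 92.9, 79.7 and 76.5 CPM in URE het (1.67-fold, edgeR adjusted p = 0.0433). Its URE het libraries lay just above the highest of the 9 others, at 75.1 CPM. Gm9008, a predicted gene, stood between 1.61 and 2.36 CPM in WT and between 3.36 and 8.8 CPM in URE het (3.54-fold, edgeR adjusted p = 0.0433).

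Of the 10 genes that fell, Siglech and Irf4 stood in the list of dendritic genes, and Clnk and Tmem176b are described with them. Siglech, a surface lectin that marks plasmacytoid dendritic cells (ENSMUSG00000051504.18, chr7:55768178-55778925), stood at 4.21, 6.33 and 4.5 CPM in WT and at 0.146, 0.857 and 0.719 CPM in URE het. All 9 libraries with 2 elements lay between 2.23 and 7.55 CPM, with no overlap (as in 1.3% of all tested genes). It was 8.43-fold lower than in WT (log2 fold change -3.08 ± 0.49, edgeR adjusted p = 0.0433). Irf4, a transcription factor of dendritic and B cells that binds DNA together with PU.1 or its relative Spi-B (ENSMUSG00000021356.9, chr13:30749226-30766976), stood at 2.98, 3.49 and 2.48 CPM in WT and at 1.1, 0.461 and 0.432 CPM in URE het. It was 3.93-fold lower (log2 fold change -1.97 ± 0.32, edgeR adjusted p = 0.0438), below every WT library, although 1 Tet2 KO library reached 0.859 CPM. Clnk, an immunoreceptor signalling adaptor related to SLP-76 (ENSMUSG00000039315.15, chr5:38706462-38876812), stood at 7.03, 8.41 and 8.29 CPM in WT and at 2.26, 1.88 and 1.84 CPM in URE het. The fall was 4.2-fold (log2 fold change -2.07 ± 0.29, edgeR adjusted p = 0.0332), and the lowest of the 9 others was 3.54 CPM. Tmem176b, a membrane protein of dendritic and myeloid cells, stood at 32.9, 36.9 and 37 CPM in WT and at 23.2, 12.9 and 14.3 CPM in URE het (2.05-fold lower, edgeR adjusted p = 0.0491), just under the lowest of the 9 others at 24.3 CPM.

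The starts of 4 of the 16 genes are shown because PU.1 and other Ets factors bind a GGAA core, often written GAGGAA in PU.1 sites. Each window holds 250 bases before and 50 after the start (RefSeq, GRCm38.p6), read 5′ to 3′ on the strand of the gene, with GAGGAA or its reverse complement TTCCTC in capitals. The windows are chr7:55767934-55768233 (plus) for Siglech, chr13:30748983-30749282 (plus) for Irf4, chr5:38876644-38876943 (minus) for Clnk and chr8:77724403-77724702 (minus) for Ednra, a gene that rose.
Siglech: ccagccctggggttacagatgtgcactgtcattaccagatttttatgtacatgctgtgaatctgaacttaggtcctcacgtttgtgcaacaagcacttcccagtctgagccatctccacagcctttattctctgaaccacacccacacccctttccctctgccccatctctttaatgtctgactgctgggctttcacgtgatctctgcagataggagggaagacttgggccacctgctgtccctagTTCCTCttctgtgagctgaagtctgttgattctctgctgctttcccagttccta
Irf4: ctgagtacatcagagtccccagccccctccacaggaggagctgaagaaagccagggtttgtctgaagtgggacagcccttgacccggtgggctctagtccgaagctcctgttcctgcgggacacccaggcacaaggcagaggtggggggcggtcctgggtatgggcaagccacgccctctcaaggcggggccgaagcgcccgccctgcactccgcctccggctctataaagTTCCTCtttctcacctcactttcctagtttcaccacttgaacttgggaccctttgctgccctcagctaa
Clnk: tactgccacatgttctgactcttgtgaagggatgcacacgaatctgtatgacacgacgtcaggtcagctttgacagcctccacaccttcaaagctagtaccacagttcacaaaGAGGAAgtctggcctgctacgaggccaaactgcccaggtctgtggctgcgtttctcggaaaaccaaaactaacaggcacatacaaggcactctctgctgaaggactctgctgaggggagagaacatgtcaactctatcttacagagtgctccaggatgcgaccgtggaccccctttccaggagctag
Ednra: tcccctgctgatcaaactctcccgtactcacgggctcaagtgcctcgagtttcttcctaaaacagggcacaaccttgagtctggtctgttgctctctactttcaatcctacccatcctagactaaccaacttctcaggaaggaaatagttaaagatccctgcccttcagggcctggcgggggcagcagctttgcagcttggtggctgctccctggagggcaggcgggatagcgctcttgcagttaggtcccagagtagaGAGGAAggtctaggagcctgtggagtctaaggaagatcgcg
Each of these 4 windows holds the motif once, and they do not stand for the others. Tmem176b, described above, has windows with and without it. The windows of the dendritic genes Clec9a and Spib, which are not among the 16, held neither this motif nor the longer one below. Over the 13 of the 16 genes with an entry in that table, 7 of 18 windows held GAGGAA on either strand, against 28.3% of all 32851 windows. The longer motif GGAANNGAAA, the joint site of an Ets factor and an interferon regulatory factor, overlaps the first motif in its GGAA core. It was in 0 of the 18 windows and in 2.72% of all windows. These matches describe letters in the windows and not binding.

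Dendritic genes beyond these were mixed. Of the 20 genes listed for MHC class II and dendritic cells, all tested, 2 fell at the adjusted threshold (Siglech and Irf4), against 0.0547% of all tested genes. At an unadjusted p under 0.05, 8 were lower and none was higher, against 7.82% lower and 7.13% higher of all tested genes. The median log2 fold change of the list was -0.39, against -0.02 over all genes tested. The list's median was -0.2 within the earlier range and -0.74 within the later. Clec9a, a receptor of cross-presenting dendritic cells, stood at 4.27, 3.82 and 4.94 CPM in WT and at 1.75, 2.31 and 2.62 CPM in URE het (log2 fold change -1.1 ± 0.28, edgeR adjusted p = 0.134). Flt3, the receptor whose ligand drives dendritic development, stood at 51.5, 63.1 and 66.2 CPM in WT and at 43.8, 21.9 and 20.1 CPM in URE het (-1.02 ± 0.23, adjusted p = 0.117). Both groups kept apart in these genes without passing the test. The classical MHC class II genes did not share that pattern: H2-Aa ran from 16.3 to 23.3 CPM in WT and from 9.93 to 27 in URE het, and Cd74, the invariant chain, from 17.8 to 37.3 CPM in WT and from 13.5 to 22.6 in URE het. Irf8, another interferon regulatory factor of dendritic and monocyte precursors, stood at 27.7, 32.8 and 19.9 CPM in WT and at 29.4, 32.9 and 33.9 CPM in URE het. The summed level of the list was 245 to 301 CPM in WT and 152 to 237 CPM in URE het. It was 287 to 495 CPM in Tet2 het and 171 to 336 CPM in Tet2 KO, so URE het overlapped Tet2 KO. A wider dendritic list of 26 genes was drawn up after values were seen. It shares members with the first list, such as Clec9a, Cd209a, Bst2 and Batf3, so its counts are no separate evidence. Of its genes 25 were tested, with 19 negative and 6 positive, and 10 were lower and none higher at an unadjusted p under 0.05. It holds Spib, an Ets factor needed by plasmacytoid dendritic cells, at 2.12, 3 and 1.21 CPM in WT and 0.256, 0.362 and 0.518 CPM in URE het (log2 fold change -2.24 ± 0.52, edgeR adjusted p = 0.113). Other genes expressed by these cells moved less. Tcf4 had a log2 fold change of -0.39, Bst2 -0.3 (edgeR adjusted p = 0.508) and Ccr9 0.15 (edgeR adjusted p = 0.92).

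The remaining falls have no shared textbook role. Gdf3, a secreted ligand of the TGF-beta family (ENSMUSG00000030117.5, chr6:122605403-122610087), had the smallest p-value of all genes. It stood at 13.9, 9.63 and 11.9 CPM in WT and at 0.95, 2.31 and 1.09 CPM in URE het, with the 9 others between 6.26 and 16.8 CPM. The fall was 8.89-fold (log2 fold change -3.15 ± 0.36, edgeR adjusted p = 0.0192), and no library of URE het overlapped any of the 9 (as in 1.3% of all tested genes). Pak1, a kinase activated by Rac and Cdc42 (ENSMUSG00000030774.13, chr7:97788541-97912381), stood at 104, 111 and 85.6 CPM in WT and at 47.1, 61.3 and 54.4 CPM in URE het. It was 1.82-fold lower (log2 fold change -0.87 ± 0.14, edgeR adjusted p = 0.0433), below all 9 others, of which the lowest was 85.6 CPM. Pkib, an inhibitor of protein kinase A, stood at 10.9, 11.1 and 11.5 CPM in WT and at 3.83, 5.63 and 4.06 CPM in URE het (2.81-fold lower, edgeR adjusted p = 0.0433). Its lowest other library, at 5.66 CPM, almost met the highest of URE het. Klk8, a kallikrein-type serine protease, was 4.48-fold lower (2.3, 2.42 and 4.87 CPM in WT; 0.767, 0.626 and 1.06 CPM in URE het). Eps8, an actin-binding adaptor, was 4.34-fold lower (4.91, 4.95 and 7.39 CPM in WT; 1.86, 1.25 and 0.892 CPM in URE het). Tgm1, a transglutaminase, was 3.99-fold lower (3.32, 3.46 and 2.85 CPM in WT; 0.877, 0.857 and 0.604 CPM in URE het). In all of these URE het lay apart from WT, and in Tgm1 the Tet2 KO libraries were low as well, with a lowest value of 0.989 CPM.

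The 16 genes moved the same way in both ranges of titles. Siglech was the most uneven, with a log2 difference of -5.13 within the earlier range, where 1 URE het library faced 2 WT libraries, and -2.51 within the later range, where 2 faced 1. Gdf3 gave -3.63 and -2.81, Ednra 2.48 and 2.2, Clnk -1.77 and -2.15, and Pak1 -1.19 and -0.57. All 16 had no overlap of URE het with WT within either range, as had 30.0% of all tested genes, and these are the values that chose them. With a term for sex the signs were the same and the edgeR adjusted p of the 16 ran from 0.107 (Gdf3 among them) to 0.134 (Gm9008). In 2 other genes, Otoa and Zcchc14, the difference from WT itself differed between the ranges (0.0109% of all tested genes, edgeR adjusted p under 0.05).

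**Figure D2:**
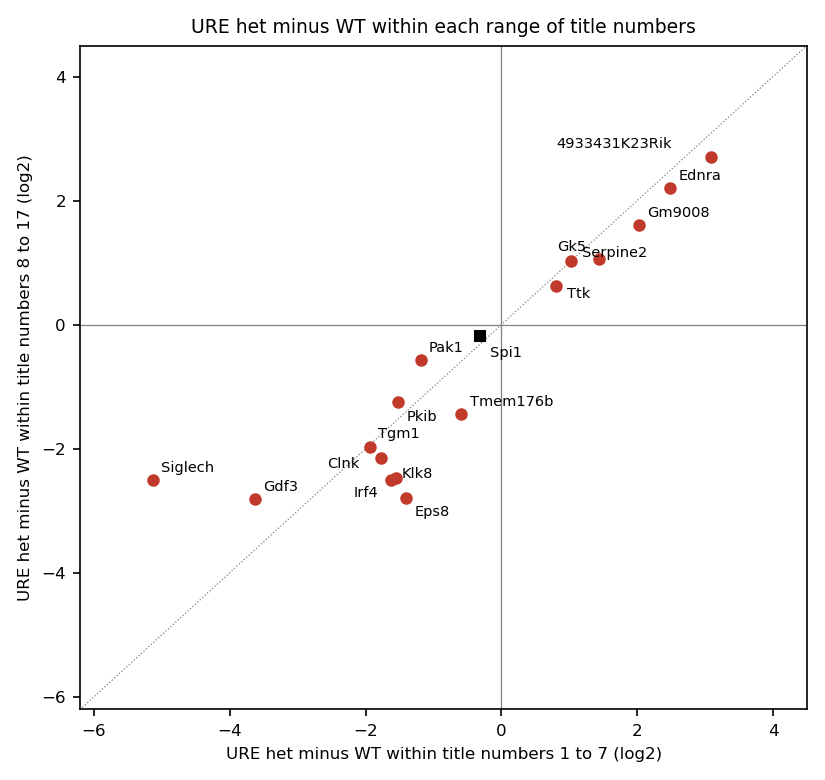
Log2 difference of URE het from WT within titles 1 to 7 (x axis) and within titles 8 to 17 (y axis) for the 16 genes that passed (red circles) and Spi1 (black square); the dotted line marks equal values. Points are single estimates from 3 libraries per range, with all 16 in the upper right or lower left, Siglech at -5.13 and -2.51, and Spi1 near the centre at -0.32 and -0.18.

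The genes next in p-value did not pass. Myc, the growth-promoting transcription factor, stood at 171, 179 and 171 CPM in WT and at 121, 84.8 and 75.9 CPM in URE het (log2 fold change -0.8 ± 0.14, edgeR adjusted p = 0.0588). URE het lay below every WT library, and partly below the 9 others, which began at 107 CPM. Crat, a mitochondrial carnitine acetyltransferase, stood at 18.9, 22.8 and 15.4 CPM in WT and at 38.3, 33.4 and 25.5 CPM in URE het (0.94 ± 0.17, adjusted p = 0.0641). Ldhb, a lactate dehydrogenase subunit, stood at 24, 14.7 and 11.2 CPM in WT and at 5.81, 5.4 and 6.1 CPM in URE het (-1.45 ± 0.26, adjusted p = 0.0688). Groups were apart in both. Next to these stood Myadm (-1.09 ± 0.19, adjusted p = 0.0641), the mitochondrial carrier Sfxn5 (-1.07 ± 0.19, adjusted p = 0.0688) and the RNA sensor Tlr8 (-1.64 ± 0.29, adjusted p = 0.0706). These 3 were also lower in the later than in the earlier range, by 0.89, 1.12 and 1.13 on the log2 scale.

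Genes that PU.1 is known to activate in myeloid cells did not move as a group. Of 30 such genes, all tested, 2 were higher and 2 lower at an unadjusted p under 0.05, and their median log2 fold change was -0.04. At that threshold 7.13% of all tested genes were higher and 7.82% lower. Csf1r, the macrophage growth factor receptor, stood at 45.9, 51.9 and 26.7 CPM in WT and at 29.3, 39.9 and 41.2 CPM in URE het, and Csf3r, the granulocyte growth factor receptor, at 215, 260 and 194 and at 237, 154 and 123 CPM. Both overlapped between groups. Itgax (CD11c), the member with the most negative value past that threshold, had a log2 fold change of -1.29 ± 0.43 (edgeR adjusted p = 0.202). Among 25 Ets factors and partners of PU.1, Irf4 fell, and at an unadjusted p under 0.05, 5 were higher and 6 lower, with a median of -0.12. Cebpe, a factor of late granulocyte maturation, had 0.88 ± 0.27 (adjusted p = 0.173) and Cebpa, of early granulocyte commitment, -0.12 ± 0.19 (adjusted p = 0.823). Primary granule genes had a median of -0.1 (-0.36 within the earlier range and 0.44 within the later) with 2 of 18 higher and none lower, and monocyte genes a median of 0.04 with 2 of 20 each way. For Mpo, the myeloperoxidase of primary granules, the difference was -0.88 within the earlier range and 0.65 within the later.

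Immediate early genes, which are induced within minutes of a stimulus, leaned down as a list without a single call. All 26 had negative log2 fold changes (median -1.2), 16 were lower at an unadjusted p under 0.05, and 23 were negative in both ranges. Over all tested genes, 52.2% were negative, 7.82% were lower at that threshold and 27.7% were negative in both ranges. Jun stood at 518, 715 and 156 CPM in WT and at 292, 74.8 and 83.1 CPM in URE het (-1.2 ± 0.29, edgeR adjusted p = 0.129). Dusp1, a phosphatase that ends MAP kinase signals, stood at 383, 801 and 161 CPM in WT and at 262, 49.7 and 36.1 CPM in URE het (-1.67 ± 0.41, adjusted p = 0.15). Within each range WT was the higher, but URE het replicate 1 exceeded WT replicate 3 in both genes. Dusp1 averaged 116 CPM in URE het, 115 CPM in Tet2 het, 147 CPM in Tet2 KO and 448 CPM in WT. The summed list ran from 478 to 2760 CPM in URE het and from 1240 to 6940 CPM in WT. It ran from 790 to 3000 CPM in Tet2 het and from 1180 to 2370 CPM in Tet2 KO, so URE het overlapped both. The list had a median of -1.64 between the later and the earlier range, larger than its median between genotypes. NF-kB and inflammatory genes showed the like, with 8 of 20 lower, none higher and a median of -1.08 (-0.86 within the earlier range and -1.64 within the later), and -1.47 between ranges. Ccl4, a chemokine, stood at 12.2, 9.91 and 3.09 CPM in WT and at 2.63, 0.428 and 0.345 CPM in URE het (adjusted p = 0.0779).

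Genes of Myc and ribosome biogenesis were all negative. Of 22 members, 12 were lower (7.82% of all tested genes) and none higher at an unadjusted p under 0.05, 20 were negative in both ranges (27.7% of all tested genes), and the median was -0.54; between the ranges of titles the list's median was -0.14. Their summed level was 4340, 4560 and 3460 CPM in WT and 3160, 2250 and 2310 CPM in URE het, with no overlap. Ncl (nucleolin) had a log2 fold change of -0.75 ± 0.15 (edgeR adjusted p = 0.0779), and Npm1 (nucleophosmin) -0.56 ± 0.14 (adjusted p = 0.136). The Tet2 het libraries summed to between 2110 and 3350 CPM and the Tet2 KO libraries to between 2370 and 3420 CPM, so URE het lay within the span of these groups and WT stood above it. Heat shock and unfolded protein genes resembled them, with 8 of 19 lower, 1 higher and a median of -0.46; Hsp90aa1, a chaperone, stood at 2040, 2040 and 1400 CPM in WT and at 1050, 911 and 793 CPM in URE het (-0.8 ± 0.19, adjusted p = 0.115).

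Mitotic genes leaned the other way. Of 30 genes of S phase and mitosis, 14 were higher (7.13% of all tested genes) and none lower at an unadjusted p under 0.05, with a median of 0.34 (0.1 within the earlier range and 0.39 within the later). Cdc20, an activator of the anaphase-promoting complex, stood at 25.4, 25.5 and 26.3 CPM in WT and at 38.2, 46.1 and 34.4 CPM in URE het (0.7 ± 0.18, edgeR adjusted p = 0.124). Aurkb, a mitotic kinase, had 0.46 ± 0.13 (adjusted p = 0.154), and Plk1, a kinase of mitotic entry, 0.66 ± 0.19 (adjusted p = 0.156). Each of the 6 minichromosome maintenance genes listed (Mcm2 to Mcm7) lay between -0.19 and 0.06. The summed list was 4830 to 5970 CPM in WT and 5550 to 6760 CPM in URE het, which overlap, and reached 8350 CPM in Tet2 KO.

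**Figure D3:**
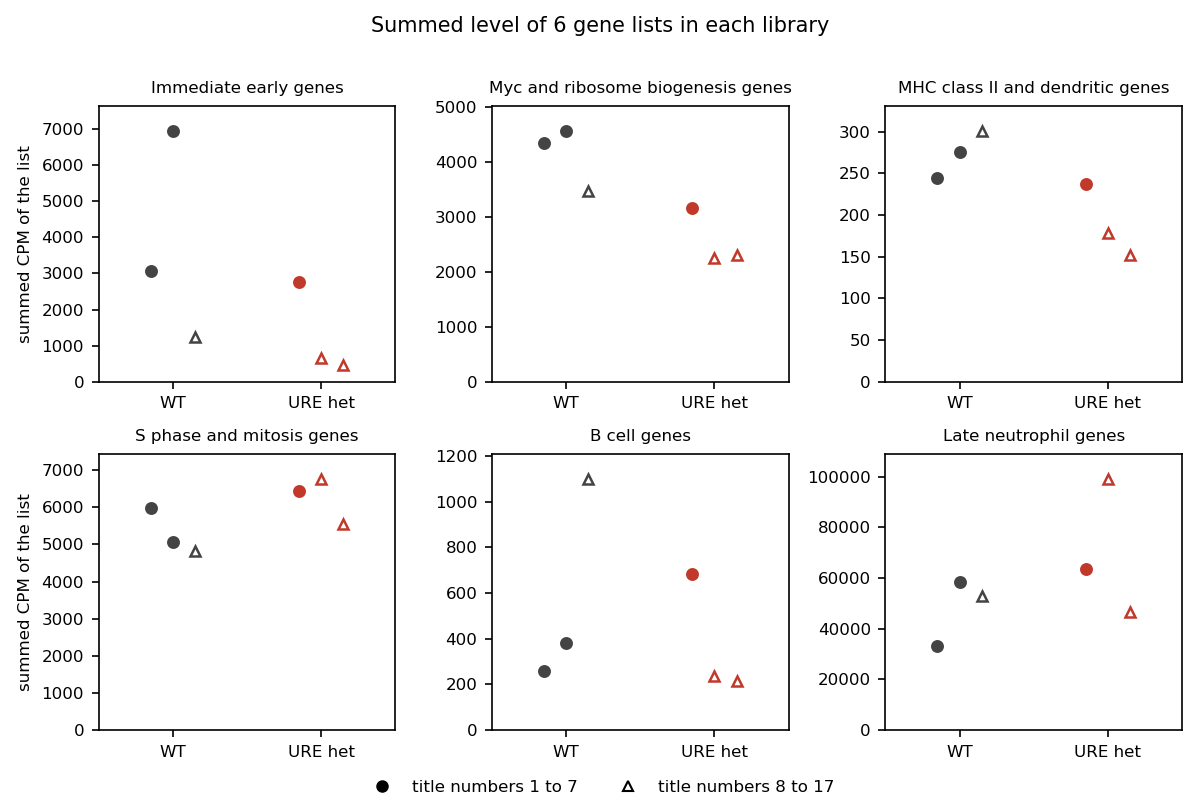
Summed CPM of 6 gene lists in each WT and URE het library (y axes from 0), with filled circles for titles 1 to 7 and open triangles for titles 8 to 17. The sums of Myc and ribosome biogenesis genes (3460 to 4560 CPM in WT, 2250 to 3160 in URE het) and of MHC class II and dendritic genes do not overlap, while those of the other 4 lists do.

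Of 31 stem cell genes tested, 9 were lower and none higher at an unadjusted p under 0.05, with a median of -0.46. The shares of all tested genes at that threshold were 7.82% lower and 7.13% higher. Within the earlier range the median was 0.08 and within the later, which holds 1 WT library, -1.25. Of the 31, 13 were negative in both ranges (27.7% of all tested genes). The difference between the ranges was not tested for the list. Tek, the angiopoietin receptor of stem and endothelial cells, stood at 2.95, 2.11 and 3.36 CPM in WT and at 0.73, 0.659 and 0.432 CPM in URE het (-2.29 ± 0.51, edgeR adjusted p = 0.1), below all 9 others. Meis1, a homeobox factor of stem cells, stood at 31.8, 31.6 and 53.7 CPM in WT and at 29.3, 12.8 and 12.9 CPM in URE het (adjusted p = 0.258). WT replicate 3 was the highest library of WT in both genes. Tet1, a relative of Tet2, stood at 68.6, 55.6 and 61.3 CPM in WT and at 37.9, 33.4 and 23.5 CPM in URE het (-1 ± 0.21, adjusted p = 0.0887), apart from all 9 others. Of all tested genes, 1.3% showed no overlap of URE het with the 9.

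Several lists of other lineages leaned down. B-cell genes had a median of -1.61, with 14 of 20 lower and none higher at an unadjusted p under 0.05, in cells sorted as negative for lymphoid markers. At that threshold 7.82% of all tested genes were lower and 7.13% higher, the shares to set beside each count of a list below. Cd79a, part of the B-cell receptor, stood at 1.44, 2.11 and 1.24 CPM in WT and at 0.329, 0.395 and 0.374 CPM in URE het (-1.9 ± 0.43, edgeR adjusted p = 0.103). It was as low in Tet2 KO, at 0.456, 0.231 and 0.469 CPM, but not in Tet2 het, at 2.28, 1.12 and 1.03 CPM. Vpreb1, of the pre-B-cell receptor, stood at or under 0.403 CPM throughout. The summed B-cell list overlapped between groups, at 259, 380 and 1100 CPM in WT and 686, 238 and 213 CPM in URE het. T and NK genes had a median of -0.88 (5 of 17 lower), genes of mast cells, basophils and eosinophils -0.55 (5 of 17 lower), megakaryocyte genes -0.32 (4 of 17 lower, 1 higher) and erythroid genes -0.16 (1 of 20 lower). The megakaryocyte median was -0.02 within the earlier range and -0.75 within the later, and the erythroid one -0.05 and -0.3. Late neutrophil genes had a median of 0.47 with 2 of 20 higher and 2 lower; Camp stood at 828, 1450 and 1010 CPM in WT and at 1780, 2840 and 1300 CPM in URE het (0.98 ± 0.45, adjusted p = 0.348), which overlap. The part of unequal cell make-up in the genes above was not tested. Interferon-stimulated genes had a median of -0.87 (6 of 24 lower, 1 higher), which was -1.07 within the earlier range, -0.11 within the later and -0.43 with a term for sex. Lists with a median nearer that of all genes were respiratory chain (-0.01, 0 of 20 past that threshold), lysosome (-0.01, 2 of 20 each way), cholesterol and lipid synthesis (-0.06, 2 of 20 higher) and hypoxia and glycolysis (-0.05, 1 of 23 higher, 3 lower). Cytokine receptors had -0.07 with 5 of 25 lower and none higher, p53 targets -0.14 with 3 of 16 lower and 1 higher (0.2 within the earlier range and -0.33 within the later), and DNA methylation enzymes 0.08 with 3 of 16 lower and none higher. Cell cycle inhibitors with D cyclins had -0.34 (1 of 15 higher, 3 lower; 0.08 within the earlier range and -0.26 within the later) and stromal and endothelial genes -0.05 (2 of 9 lower).

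**Figure D4:**
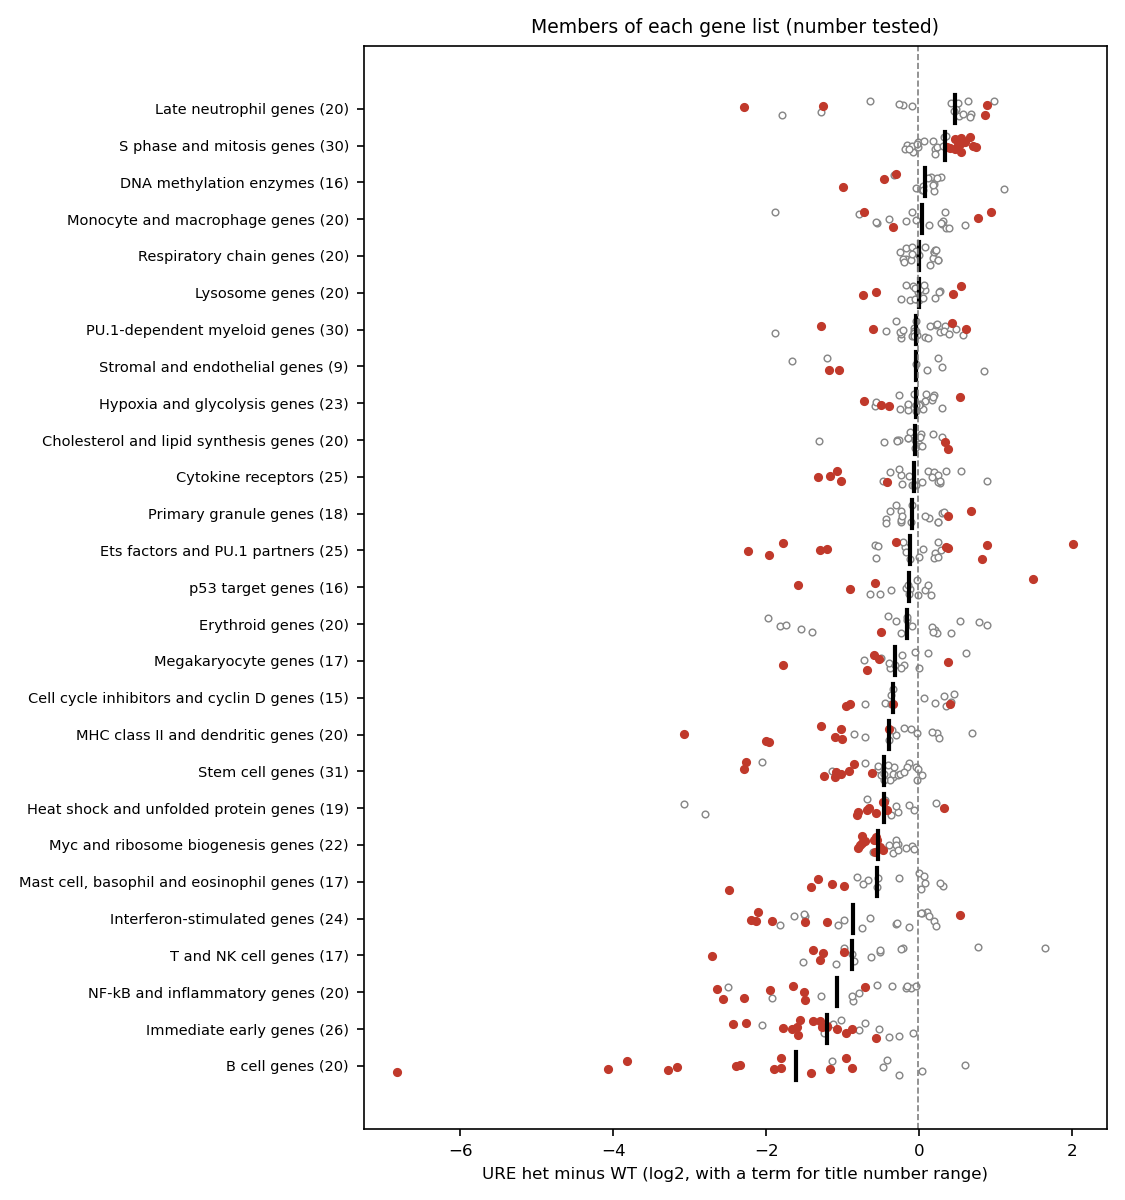
Log2 fold change of URE het against WT for every tested member of 27 gene lists (x axis; 1 row per list, number tested in brackets), with red points at an unadjusted p under 0.05, open points otherwise, black bars for list medians and a dashed line for the median of all genes (-0.02). Immediate early, NF-kB and Myc lists have no member above 0, and red points of the S phase and mitosis list lie only above 0.

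Set against all 9 Normal libraries with 2 intact elements, URE het differed in 29 genes (0.159%), 10 higher (0.0547%) and 19 lower (0.104%). The 9 include the WT libraries, so the comparison is not independent of the one above. Named here are genes that did not pass against WT alone. Chit1, a macrophage chitinase, stood at 10.2, 11.5 and 6.36 CPM in URE het against 1.08 to 4.32 CPM in the 9 (log2 fold change 1.84, edgeR adjusted p = 0.0211). Mcf2l, a guanine nucleotide exchange factor, stood at 17.7, 16.8 and 19.8 CPM against 5.54 to 11.7 CPM (1.11, adjusted p = 0.0217), and Il17rb, a subunit of the interleukin-25 receptor, at 7.82, 6.06 and 12 CPM against 2.58 to 5.34 CPM (1.14, adjusted p = 0.0411). None of the 3 overlapped, as held for 1.3% of all tested genes, and they were taken from genes that passed against these same 9 libraries. Rnase6, a secreted ribonuclease of myeloid cells, stood at 2.92, 2.5 and 2.3 CPM against 4.7 to 12.2 CPM (-1.39, adjusted p = 0.0217), and Clec9a had -1.52 (adjusted p = 0.0281). With a term for sex 2 genes passed, and among male libraries alone 3 passed.

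URE het was also tested against each Tet2 genotype. Against Tet2 KO 5 genes passed (0.0273%): 2 were lower (0.0109%), Gdf3 (log2 fold change -3.21) and Pak1 (-0.97), and 3 were higher (0.0164%), Ednra (2.79), 4933431K23Rik (3.22) and the sulfatase Arsg (1.41). Against Tet2 het 21 genes passed (0.115%), 3 higher (0.0164%) and 18 lower (0.0985%), with Siglech at -3.5, Irf4 at -2.43, Clec9a at -2.1 and Rnase6 at -1.89 among the lower. The Tet2 het libraries held the highest Clec9a, at 6.2, 7.59 and 15.3 CPM. These tests share the 3 URE het libraries with the comparison to WT.

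The 5 AML libraries carry the URE deletion with loss of Tet2, so genotype and disease cannot be told apart in them; their levels are given beside those above on a scale set over all 17 libraries. Ednra stood at 15.8, 45 and 42.2 CPM in the 3 URE het Tet2 KO libraries and at 91 and 10.8 CPM in the 2 URE het Tet2 het libraries, above the 9 with 2 elements (1.65 to 8.29 CPM); over all tested genes, 2.54% showed no overlap of the 5 AML libraries with the 9. Pak1 ran from 13.1 to 55.2 CPM in AML against 85.7 to 113 CPM, Irf4 from 0.0423 to 0.531 against 0.865 to 5.06 CPM and Pkib from 0.195 to 4.56 against 5.66 to 13.1 CPM. These 4 genes, named after their values were seen, stand for only some of the 16. Gdf3 was uneven: replicate 3 of URE het Tet2 KO held 112 CPM, the other 4 between 0 and 3.68 CPM. Ttk (33.3 to 71.2 CPM) and Gm9008 (1.57 to 3.41 CPM) did not stand above the 9. Gk5, higher in URE het, had an AML median of 8.17 CPM, under the lowest of the 9 at 8.98 CPM, and a highest AML library of 34.4 CPM. Tgm1 (0.358 to 4.9 CPM in AML, 0.993 to 3.48 in the 9) and Eps8 (1.25 to 7.51 CPM in AML, 3.26 to 8.1 in the 9) overlapped. The comparison of AML libraries with the 9 shares the WT libraries with that of URE het.

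**Figure D5:**
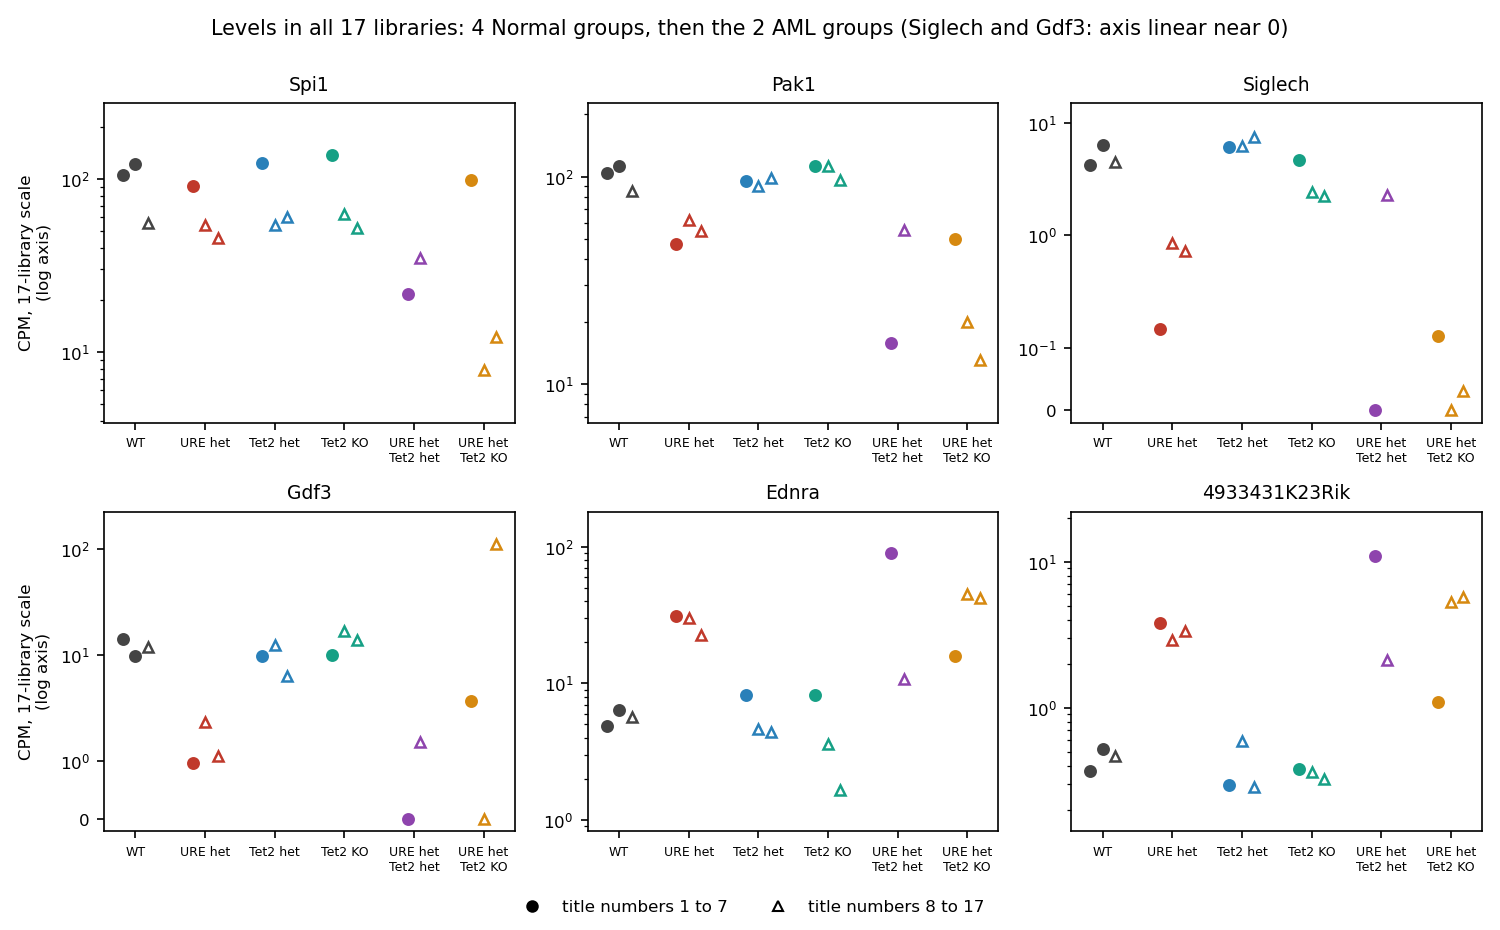
CPM of 6 genes in all 17 libraries by genotype (log axes; near 0 linear for Siglech and Gdf3), with 1 point per library, filled circles for titles 1 to 7 and open triangles for titles 8 to 17. Ednra and 4933431K23Rik lie higher and Pak1 lower in each library with the URE deletion than in each of the 9 with 2 elements, while Spi1 in URE het (45.3 to 90.9 CPM on this scale) overlaps them.

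Across the 12 Normal libraries, levels of 10045 genes were correlated with Spi1 after centring each range, as a description of libraries that share depth and sort. The genes most like Spi1 were Ear2 (Pearson r = 0.91), Ifnar2 (0.89), Chil3 (0.88), Castor2 (0.87) and Galm (0.87), and the least like were Orc5 (-0.92), Fan1 (-0.92), Pdlim1 (-0.91), Xlr4a (-0.9) and Zfp709 (-0.84). None of the 16 genes above was among them.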

How the data were processed

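RNA of 17 libraries was sorted, purified on small columns and sequenced by a low-input poly(A) method, per the labels' protocols. The authors deposited raw counts in 1 table with a column per library; reads were aligned with STAR to GRCm38, per the submitters' processing notes, with annotation, counter and strand setting not given in the sources used here. Of 96004 rows, 47643 were genes and were used; 48361 rows marked enh were left out. Symbols came from GENCODE vM21 (47224 matched without version). Gene counts per library were 21.1 to 38.3 M (median 32.2), so counting error is small except for rare transcripts.

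The 12 Normal libraries were fitted with edgeR 4.0.16 (R 4.3.3; TMM, filterByExpr with minimum count 10 and total 15, robust quasi-likelihood F test), with 1 mean per genotype and a term for title range (1 to 7 or 8 to 17), which left 7 residual degrees of freedom. P-values are two-sided and adjusted by Benjamini-Hochberg over 18282 genes. SE is the log2 fold change over the root of F. CPM are TMM-scaled. The steps were run on simulated counts with known changes and a range effect. Of 67 genes changed by 1 on the log2 scale, 65.7% were recovered, and 9 of 175 calls were false. The simulation held no sex effect, so it does not measure how calls in the real data depend on the fit. Promoter windows were from RefSeq GRCm38.p6.

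Named genes were Spi1, Tet2, the largest changes past 0.05 (mean of at least 1 log2 CPM, no overlap within ranges; predicted genes left out), the smallest p-values up to 20 genes, and leading members of each list. Other genes, such as 4933431K23Rik, Gm9008, Clec9a, Spib, Rnase6, Mpo, Camp, Irf8, Csf1r, Dusp1, Plk1 and Meis1, were chosen after their values were seen. The genotypes, lists and tests were all chosen with earlier results of these data known. Alternatives were DESeq2 1.42.0, limma 3.58.1 voom, other filters, scalings and library sets, a sex term, single ranges and leaving out each library. The values of 1 gene are not reported here.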

Additional observations from a re-analysis of the deposited data

Results flagged for a closer look

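In 2 genes the difference of URE het from WT itself differed between the ranges of titles (0.0109% of 18282 genes tested, edgeR adjusted p under 0.05 for the interaction). Otoa, which encodes otoancorin, stood at 1.38 and 1.28 CPM in WT and 8.47 CPM in URE het in titles 1 to 7, and at 10.2 CPM in WT and 1.45 and 2.53 CPM in URE het in titles 8 to 17, so the log2 difference between the effects was -5.02. Zcchc14, a zinc finger gene, stood at 3.81, 2.81 and 5.51 CPM in the earlier range and at 14.7 CPM in WT and 1.05 and 1.09 CPM in URE het in the later, a difference of -4.51. In both, WT replicate 3 was the highest of the 3 WT libraries. That library is the only WT library of the later range, and no test separates it from the range.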

How the results depend on the processing

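Counts of genes past an adjusted p of 0.05 moved widely with the fit. For URE het against WT (16), the count was 0 without the range term, 0 in both fits of all 17 libraries, 7 and 0 in the 6 libraries alone with and without the term, 195 without the low-count filter, 489 with DESeq2, 2 with voom (both higher), 4 with a non-robust spread, 0 with a sex term, 6 within titles 1 to 7 (all lower), 91 within 8 to 17 (1 higher, 90 lower), and 0 to 173 leaving out 1 library (173 without URE het replicate 1, 40 higher and 133 lower). Against the 9 (29), it was in the same order 2, 0 and 0 (17 libraries), 158, 318, 14, 2 (sex term), 10, 68 and 6 to 80, and 3 among male libraries, an alternative added after seeing the data. Against Tet2 KO (5), it was 2 without the range term, 0 and 0 with 17 libraries, 2 and 0 in the compared libraries alone, 67 unfiltered, 164 with DESeq2, 0 with a sex term, 11 within 8 to 17 and 0 to 17 leaving out 1 library. Against Tet2 het (21), it was 0, 0 and 0, then 32 and 0 alone, 115, 239, 13 with voom, 0 with a sex term and 0 to 53 leaving out 1 library. For the interaction (2), it was 13 in the compared libraries alone, 1 with DESeq2 size factors, 178 unfiltered, 109 with DESeq2, 0 with voom, 0 non-robust, 8 with a sex term and 0 to 12. With DESeq2 size factors the counts of the first 4 comparisons stayed within 1.5 times of those reported. The causes were not tested, except that unlike spreads enter with other libraries by construction.

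Of 87 genes recomputed, all but 5 kept their sign in every alternative run: Cebpa ran from -0.23 to 0.04 with 1 library left out (0.04 without WT replicate 1) and was 0.05 within 8 to 17, Mybpc3 ran from -1.1 to 1.41 (1.41 without WT replicate 3) and was 0.34 with voom and 1.71 within 1 to 7, Fcnb -0.01 and Tal1 0.01 within 1 to 7, and Slc4a1 0.05 within 8 to 17. Spi1 ran from -0.58 to -0.11 with adjusted p from 0.439 to 1. Gdf3, Clnk and 4933431K23Rik kept their call in 13 of 25 alternatives each, more than the other 13 called genes. The lone library of an arm was assumed to vary like the others. Genes near 1 CPM rest on few counts. No paired analysis was possible because the titles number the libraries 1 to 17 through all groups and give no replicate number.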
